A study of Mus musculus with 10 samples.

Results

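The 10 genes described here encode the machinery of major histocompatibility complex (MHC) class II antigen presentation: the chains H2-Aa, H2-Ab1 and H2-Eb1, the invariant chain Cd74, the transcriptional coactivator Ciita, the peptide-loading genes H2-DMa, H2-DMb1 and H2-DMb2, and their modulators H2-Oa and H2-Ob. They were chosen by gene name from 37882 genes in the deposited table. The rule used no measured values, but earlier results of these data were known when it was made. Every tumour was an orthotopic graft, in FVB/N hosts, of the murine breast cancer line MCa-M3C, and treatment began at about 100 mm3. Control mice (n = 5) received PBS and treated mice (n = 5) received TMA-ARB, an angiotensin receptor blocker in a form activated in the tumour microenvironment, at 40 mg/kg valsartan. Both were injected intravenously each day for 6 days. Neither the age of the mice nor a statement that each library is 1 animal is given in the labels used here, so p-values measure the spread between libraries. All grafts come from 1 cell line, and each library is RNA of a whole tumour.

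MHC class II molecules are pairs of an alpha and a beta chain that present peptides from endocytosed proteins to CD4 T cells. They assemble with the invariant chain, whose remnant in the peptide groove is exchanged for peptide with the help of H2-DM, a step that H2-O restrains. Dendritic cells, macrophages and B cells are the main carriers, and other cells can be induced by interferon-gamma through Ciita, which acts at the X and Y boxes of class II promoters.

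All 10 genes had a negative log2 fold change of TMA-ARB over control, with a median of -0.74, where 47.2% of the 14063 genes tested were negative and their median was 0.021. None of the 10 passed the quasi-likelihood F test of edgeR at an adjusted p under 0.05, a call given to 0 of 14063 genes (0%). The adjusted p was 0.997 for each. At an unadjusted p under 0.05 there were 2 of the 10, H2-Aa and Cd74, beside 1.66% of all genes called lower by that rule. DESeq2 likewise called 0 of the 10 at an adjusted p under 0.05 (0.00837% of its genes). Limma-voom with sample weights put 3 of the 10 lower at an unadjusted p under 0.05, beside 5.23% of all genes. Single libraries decided that count of 2: it was 6 with TMA-ARB replicate 6 left out, 5 with control replicate 4 left out, and 0 with any of control replicates 1 and 2 or TMA-ARB replicates 7 and 9 left out. The share of all genes at that p, in either direction, moved too: from 3.25% with all libraries to 8.5% without TMA-ARB replicate 6, 3.20% without control replicate 4, and 2.11%, 1.56%, 4.32% and 1.56% without replicates 1, 2, 7 and 9. All 10 passed the filter on low counts. In no gene did every TMA-ARB library lie below every control, which was so for 0.363% of genes tested. In whole tumours, fewer cells of a type and less RNA per cell cannot be told apart, and this holds for each value below.

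**Figure D1:**
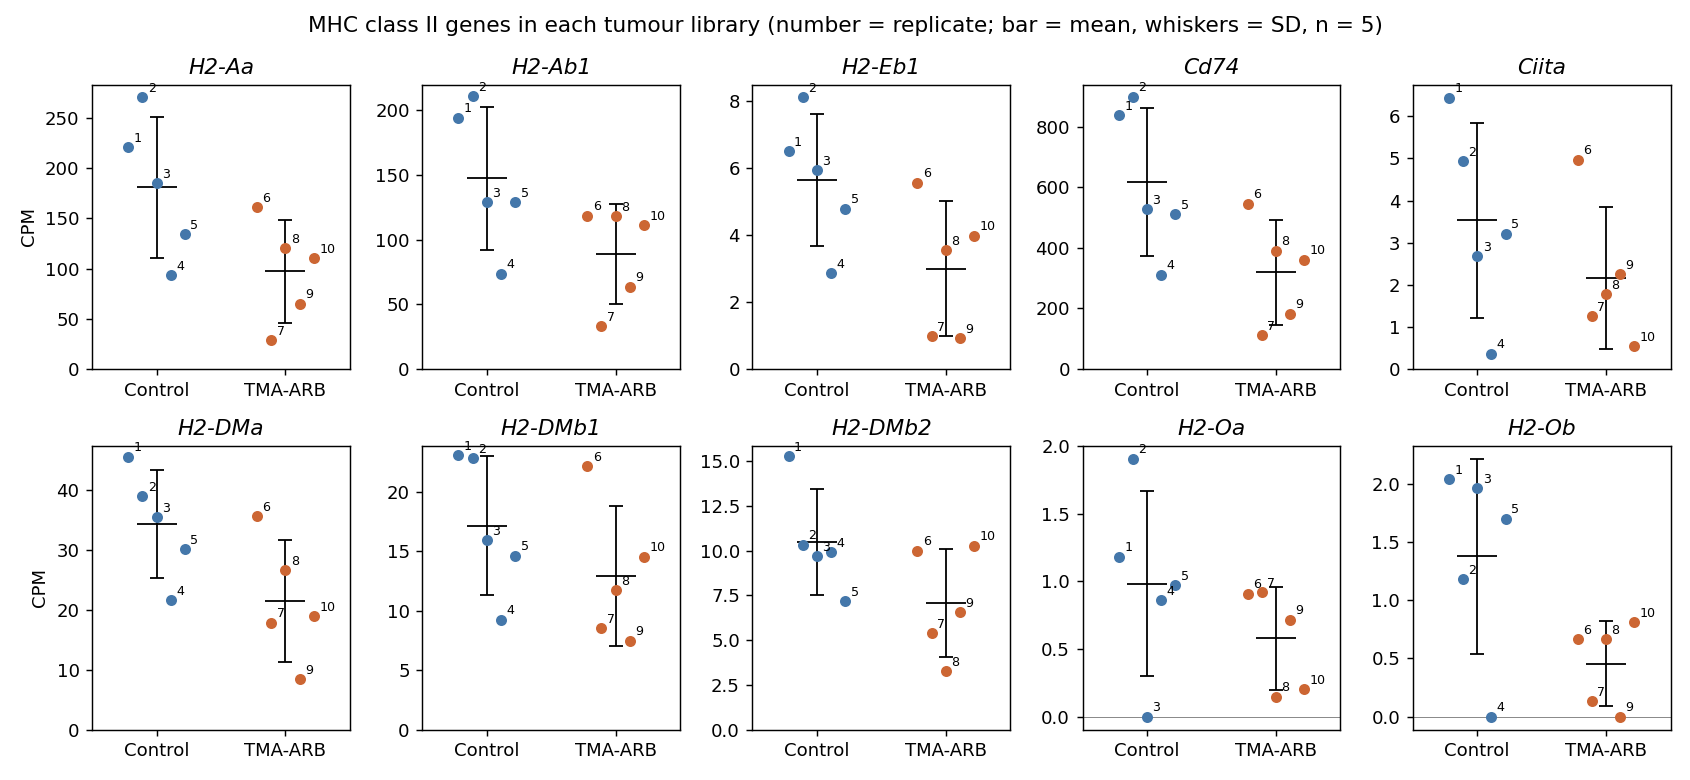
Counts scaled to library size (CPM) of each class II gene in every library, with a panel per gene, numbers for replicates, a bar for the group mean and whiskers for the SD. Control replicates 1 and 2 lie at the top of most panels, TMA-ARB replicate 6 lies among the controls in most, and TMA-ARB replicates 7 and 9 are lowest or next to lowest for Cd74, H2-Aa, H2-Ab1 and H2-Eb1.

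RefSeq (GRCm38.p6) held 8 promoter entries for 7 of the genes, and 3 of them are shown because they bear on how class II genes are regulated together. Within 250 bases before the gene start, on both strands, the Y box core ATTGG was looked for, as was the core of the X box, which can be read from the upstream run of capitals in H2-Eb1 and H2-Ob. Both were searched independently of each other. The windows below run 5' to 3' on the gene's strand, with matches to either core on that strand in capitals. A Y core match on the other strand, near the end of the H2-Eb1 window, is left in lower case. They lie at chr17:34305748-34305837 (plus strand), chr17:34238788-34238877 (plus strand) and chr17:34287842-34287931 (minus strand).
H2-Eb1: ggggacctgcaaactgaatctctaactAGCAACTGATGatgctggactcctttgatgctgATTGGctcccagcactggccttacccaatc
H2-Ob: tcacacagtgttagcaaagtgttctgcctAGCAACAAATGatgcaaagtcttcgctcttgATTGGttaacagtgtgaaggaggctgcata
H2-Aa: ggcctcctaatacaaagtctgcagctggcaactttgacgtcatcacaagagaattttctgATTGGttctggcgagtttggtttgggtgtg
The Y box core was in 7 of 8 member entries and in 33.85% of 32851 promoter entries of the same length. The X box core was in 4 of 8 and in 2.60% of all. Both, on the same strand with 25 to 45 bases between their starts, were in H2-Eb1, H2-Ob and H2-DMb1 and in 24 entries in all (0.073%). In H2-Eb1 the X core began 92 bases before the gene start and the Y core 33 bases after it. The spacing was 31 bases in H2-Ob and 34 in H2-DMb1. H2-Aa held the Y core, 48 bases before its start, without the X core as spelled here. These matches are descriptions of sequence, and no binding was measured.

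Levels of different genes were compared as CPM per kilobase of exon. The length counted every base in an exon of any annotated transcript of the gene, so the order below depends on it. Cd74 stood highest, at 368 ± 146 in controls (SD, n = 5). H2-Ab1 was at 57.4 ± 21.6 and H2-Aa at 47.6 ± 18.4. The loading genes formed the next tier, with H2-DMb1 at 10.2 ± 3.49, H2-DMa at 9.96 ± 2.63 and H2-DMb2 at 5.99 ± 1.69. H2-Eb1 was at 2.91 ± 1.01, H2-Oa at 0.700 ± 0.487, Ciita at 0.370 ± 0.242 and H2-Ob at 0.256 ± 0.156. Among neighbours in this order, the control values overlapped for H2-Ab1 and H2-Aa, for H2-DMb1, H2-DMa, H2-DMb2 and H2-Eb1, and for H2-Oa, Ciita and H2-Ob. They did not overlap between Cd74 and H2-Ab1, between H2-Aa and H2-DMb1, or between H2-Eb1 and H2-Oa. H2-Ab1 nonetheless exceeded H2-Aa per kilobase in 10 of 10 libraries, with exon lengths of 2568 and 3798 bases. In plain CPM the control means had the other order, at 147 for H2-Ab1 and 181 for H2-Aa. By plain CPM H2-DMa (34.3) likewise stood above H2-DMb1 (17.1), and Ciita (3.53), with 9535 bases of exon, above H2-Oa (0.984). H2-Eb1, a beta chain like H2-Ab1, thus carried far fewer counts than it. The mm10 build comes from C57BL/6J mice, a strain with other class II alleles than FVB/N, and how that bears on the level of each chain was not tested. The pseudogene H2-Ea-ps stands at the alpha chain locus that would pair with H2-Eb1. It averaged 2.27 ± 1.45 CPM in the controls, against 0.987 ± 0.845 with TMA-ARB (log2 fold change -1.18 ± 0.78, SE, edgeR unadjusted p = 0.152). Of 3 tested genes in a list of others from the region, H2-Ea-ps included, 2 were negative and 1 positive, with 0 called. The positive gene was Btnl2, at 1.04 ± 0.81.

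**Figure D2:**
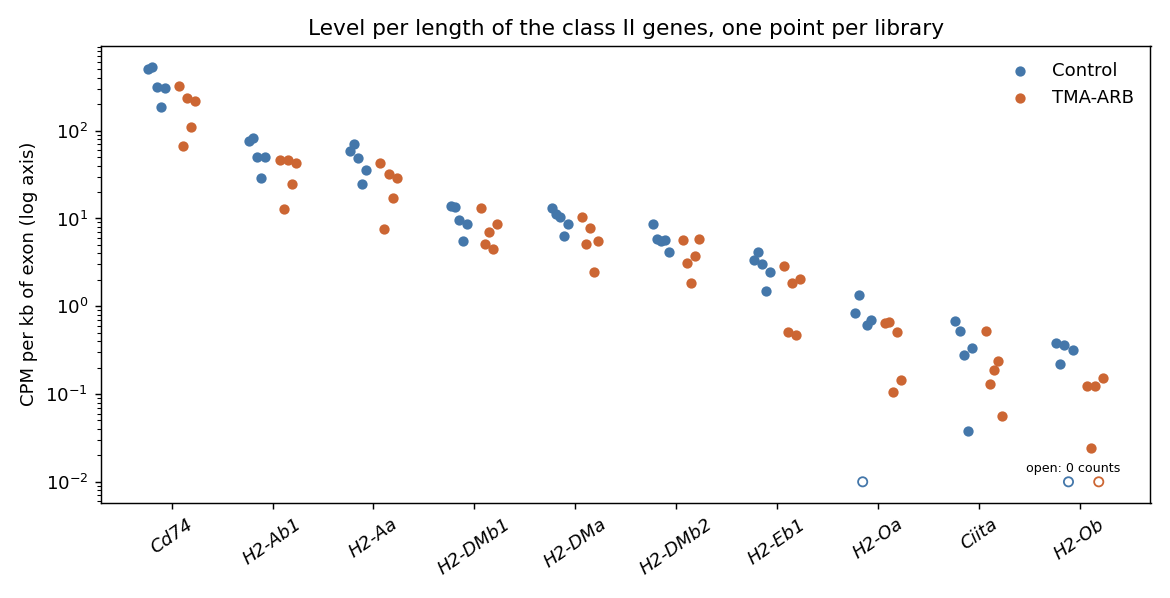
Level of each gene per length, in CPM per kilobase of exon on a log axis, with a point per library and open points at the foot for libraries with 0 counts. The order runs from Cd74 at 368 in controls to H2-Ob at 0.256.

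The genes of 8 members lie on chromosome 17 within 224.3 kb (34092340 to 34316674, GRCm38), in the order H2-Oa, H2-DMa, H2-DMb2, H2-DMb1, H2-Ob, H2-Ab1, H2-Aa and H2-Eb1. Ciita lies on chromosome 16 (10480059 to 10528418) and Cd74 on chromosome 18. H2-Aa, the alpha chain (34282744 to 34287823, minus strand), measured 221, 271, 185, 93.5 and 134 CPM in control replicates 1 to 5, against 161, 28.6, 121, 65.2 and 110 CPM in TMA-ARB replicates 6 to 10. TMA-ARB replicates 7 and 9 lay below every control, and the other 3 lay within the control range. The means were 181 ± 69.9 and 97.2 ± 51.3 CPM (SD, n = 5), a log2 fold change of -0.90 ± 0.41 (SE; edgeR unadjusted p = 0.0476, adjusted p = 0.997; exact permutation p = 0.0794).

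H2-Ab1, its beta chain partner (34257689 to 34269419), stood at 194, 211, 129, 73.7 and 129 CPM in the controls, against 118, 33.2, 118, 63.5 and 111 CPM under TMA-ARB. Again TMA-ARB replicates 7 and 9 alone were below all controls. Its log2 fold change was -0.73 ± 0.36 (edgeR unadjusted p = 0.0607, adjusted p = 0.997). H2-Eb1 (34305867 to 34316674) measured 6.51, 8.13, 5.95, 2.87 and 4.79 CPM in the 5 controls, against 5.57, 0.987, 3.55, 0.923 and 3.99 CPM under TMA-ARB, from 9 to 145 counts per library. The same 2 TMA-ARB libraries were lowest, and the log2 fold change was -0.90 ± 0.50 (edgeR unadjusted p = 0.0924). The log2 ratio of H2-Aa to H2-Ab1 ran from 0.05 to 0.52 in controls and from -0.21 to 0.44 under TMA-ARB. The difference of -0.23 did not pass an exact permutation test (p = 0.111, adjusted p = 0.370 over 7 ratios). Without TMA-ARB replicate 6 it was -0.33 (exact permutation p = 0.0159).

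Cd74, the chaperone of the newly made chains, took 59.8% of all counts of the 10 genes. Its values were 840, 900, 529, 311 and 511 CPM in the controls, against 546, 112, 391, 183 and 362 CPM under TMA-ARB. Control replicates 1 and 2 stood above all other libraries, and TMA-ARB replicates 7 and 9 below all controls. The means were 618 ± 246 and 319 ± 173 CPM, with a log2 fold change of -0.96 ± 0.40 (SE; edgeR unadjusted p = 0.0338, adjusted p = 0.997; exact permutation p = 0.0794). The highest library held 8.03 times the CPM of the lowest. Within the controls that spread was 2.89-fold, and within TMA-ARB it was 4.88-fold.

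Ciita, the coactivator that sets class II transcription, held 5 to 98 counts per library. It measured 6.44, 4.94, 2.68, 0.359 and 3.21 CPM in the controls, against 4.97, 1.25, 1.77, 2.26 and 0.541 CPM under TMA-ARB. The lowest library was a control, replicate 4, and TMA-ARB replicate 6 alone of the treated libraries lay above the control mean. The log2 fold change was -0.71 ± 0.67 (SE; edgeR unadjusted p = 0.309). Leaving out control replicate 1 gave -0.38, leaving out TMA-ARB replicate 10 gave -0.45 and leaving out TMA-ARB replicate 6 gave -1.28, while limma-voom with sample weights gave -1.25. Ciita overlaps Dexi on the opposite strand. The kit marks strand, but the strand setting of the counting was not given in the sources used here.

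The DNA-binding partners that recruit Ciita showed no common direction. Of 7 genes, 4 were negative and 3 positive, with 0 called, 0 at an unadjusted edgeR p under 0.05 and a median of -0.20. All subunits of the X box factor were negative, with Rfx5 at -0.40 ± 0.37, Rfxap at -0.39 ± 0.22 and Rfxank at -0.31 ± 0.18 (log2 fold change, SE), and Creb1 was at 0.26 ± 0.16. Of the interferon-gamma route to Ciita, 6 of 7 tested genes were negative, 0 called, with a median of -0.23. Jak2 was at -0.31 ± 0.19 and Irf1, an induced transcription factor, at 0.07 ± 0.24. Ifng itself held 55 counts over all libraries and was too low to test. Of 11 other interferon-gamma inducible genes, 8 were negative and 3 positive, with a median of -0.16 and 0 called. Among them Gbp2 was at -0.67 ± 0.36 and Cxcl9 at -0.03 ± 0.29.

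H2-DMa, the alpha chain of the peptide exchange factor (34119541 to 34139101), measured 45.6, 38.9, 35.5, 21.6 and 30.1 CPM in the controls, against 35.7, 17.8, 26.6, 8.41 and 18.9 CPM under TMA-ARB. TMA-ARB replicates 7, 9 and 10 were below every control. The log2 fold change was -0.67 ± 0.32 (SE; edgeR unadjusted p = 0.0543; exact permutation p = 0.0714). H2-DMa overlaps Brd2 on the opposite strand.

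H2-DMb1 (34153072 to 34160230) and H2-DMb2 (34143307 to 34151555) encode alternative beta chains and are near-identical in stretches. Of the 31-base words in H2-DMb1 transcripts, 31.4% occurred also in H2-DMb2. In H2-DMb2 36.4% occurred in another gene, against at most 1.41% in any other member, so the split of reads between the pair is uncertain. H2-DMb1 measured 23.1, 22.8, 16.0, 9.25 and 14.6 CPM in the controls, against 22.2, 8.55, 11.7, 7.48 and 14.5 CPM under TMA-ARB (log2 fold change -0.41 ± 0.32, edgeR unadjusted p = 0.229). H2-DMb2 measured 15.3, 10.3, 9.68, 9.90 and 7.16 CPM in the controls, against 9.99, 5.39, 3.25, 6.56 and 10.3 CPM under TMA-ARB (-0.56 ± 0.33, unadjusted p = 0.112). TMA-ARB replicates 7 and 9 lay below every control for H2-DMb1, and TMA-ARB replicates 7, 8 and 9 for H2-DMb2. The fold change of H2-DMb1 was -0.69 with TMA-ARB replicate 6 left out (unadjusted p = 0.0427) and -0.26 with TMA-ARB replicate 9 left out. That of H2-DMb2 was -0.37 with TMA-ARB replicate 8 left out and -0.32 in limma-voom. Summed, the pair gave 27.6 ± 7.98 and 19.99 ± 8.19 CPM and a log2 fold change of -0.46 ± 0.28 (edgeR unadjusted p = 0.121). The log2 ratio of H2-DMa to H2-DMb1 averaged 1.03 ± 0.17 in controls and 0.69 ± 0.43 under TMA-ARB (difference -0.34, exact permutation p = 0.159, adjusted p = 0.370 over 7 ratios). Without TMA-ARB replicate 9 the difference was -0.21 (exact permutation p = 0.294).

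H2-Oa and H2-Ob, the chains of the H2-DM inhibitor, were the least counted members. H2-Oa (34092340 to 34095234) held 18, 34, 0, 12 and 16 counts in the controls and 15, 14, 2, 7 and 3 under TMA-ARB, or 0.984 ± 0.685 and 0.579 ± 0.378 CPM. A count of 0 in control replicate 3 allows up to 3 counts, or 0.196 CPM. Its log2 fold change was -0.76 ± 0.85 (edgeR unadjusted p = 0.385), and -0.37 without control replicate 2. H2-Ob (34238903 to 34254414) held 31, 21, 30, 0 and 28 counts in controls and 11, 2, 9, 0 and 12 under TMA-ARB, or 1.38 ± 0.839 and 0.455 ± 0.363 CPM. Control replicate 4 and TMA-ARB replicate 9, both at 0, allow up to 0.215 and 0.308 CPM. All other controls, from 1.18 to 2.04 CPM, lay above every TMA-ARB library, whose highest was 0.811 CPM. H2-Ob had the most negative log2 fold change of the members, -1.55 ± 0.93 (SE, edgeR unadjusted p = 0.116, exact permutation p = 0.214). It was -1.86 without control replicate 4 (edgeR unadjusted p = 0.0304) and -0.997 in limma-voom with sample weights. With 1 library left out, its edgeR unadjusted p ran from that value to 0.216.

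**Figure D3:**
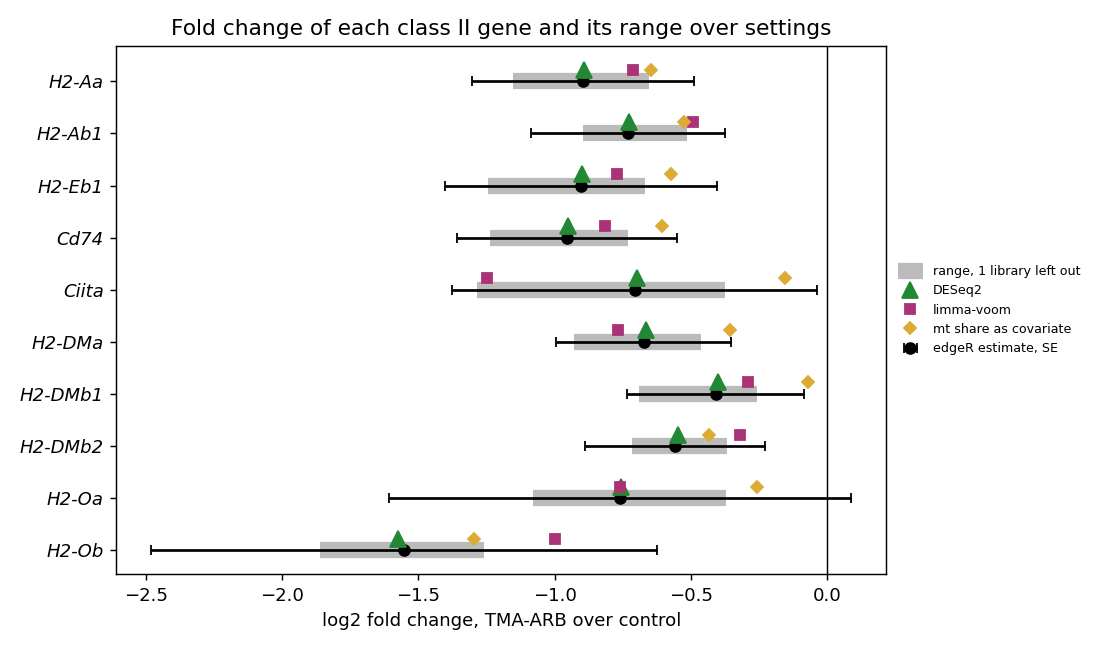
Log2 fold change of TMA-ARB over control for each gene: black points with SE bars from edgeR, grey bars for the range when 1 library is left out, and symbols for DESeq2, limma-voom with sample weights and a fit with the mitochondrial share as a covariate. Every symbol lies left of 0, and the SE bar of H2-Oa crosses 0.

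The mitochondrial part of the counts also differed between libraries. It ran from 2.07% to 6.63% in controls and from 2.22% to 24.97% under TMA-ARB, with means of 4.19% ± 2.21 and 10.5% ± 9.12 (SD, n = 5). Control replicates 1 and 2, highest in class II genes, were at 2.15% and 2.07%, and TMA-ARB replicate 9, among the lowest, was at 24.97%. TMA-ARB replicate 7, lowest for Cd74, was at 3.18%. With the log2 share as a covariate the median of the 10 genes was -0.48, with Cd74 at -0.61, H2-Eb1 at -0.57, H2-DMa at -0.36, H2-Oa at -0.26, Ciita at -0.16, H2-DMb1 at -0.07 and all 10 negative. Among libraries below a 5% share (control replicates 1, 2 and 5, TMA-ARB replicates 6 and 7) the median was -0.80. Above that line (control replicates 3 and 4, TMA-ARB replicates 8, 9 and 10) it was -0.50 over 9 tested genes. There H2-Ob was at -0.97, H2-Aa at -0.50, Cd74 at -0.44, H2-DMb1 at -0.17 and Ciita at -0.02. H2-Ab1 was at -1.22 in the low-share libraries and at -0.06 in the high-share ones. Among the low-share treated libraries, H2-Ab1 held 118 CPM in TMA-ARB replicate 6 and 33.2 CPM in TMA-ARB replicate 7. The difference between the 2 fold changes was not tested, nor was the part of the mitochondrial share in the class II values. Libraries above the line still differed in share between the groups, at 6.37% and 6.63% in controls and 10.5% to 24.97% under TMA-ARB.

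Most members followed a common order of libraries, and by Pearson's r H2-Oa, H2-DMb2 and Ciita followed it least. Averaged over the 10 genes, log2 CPM against the control mean was 0.62 and 0.57 in control replicates 1 and 2, -0.16, -1.02 and -0.01 in control replicates 3, 4 and 5, and 0.10, -1.46, -0.68, -1.34 and -0.65 in TMA-ARB replicates 6 to 10. Control replicates 1 and 2 gave the highest library for 5 genes each. Across the 10 libraries, Pearson's r among H2-Aa, H2-Ab1, H2-Eb1 and Cd74 ran from 0.92 to 0.98 over 6 pairs and Spearman's rho from 0.94 to 0.99, with adjusted permutation p from 0.000112 to 0.000193 over 45 pairs for r (raw p from 1e-05, the smallest 100000 permutations can give, to 3e-05). With each group's mean removed r was 0.89 to 0.98, and without the 2 libraries farthest from the median of the gene named first in each pair it was 0.90 to 0.98. In all, 21 of 45 pairs had an adjusted permutation p under 0.05 for Pearson's r. No pair with H2-Oa, H2-DMb2 or Ciita was among them. By Spearman's rho Ciita reached an adjusted permutation p under 0.05 with H2-Aa, H2-Ab1, H2-Eb1, Cd74, H2-DMa and H2-DMb1 (rho 0.73 to 0.82). It did not with H2-DMb2, H2-Oa or H2-Ob. H2-DMb2 reached it by rho with H2-Eb1 and H2-DMb1 only, and H2-Oa with no member. For H2-Oa r ran from -0.19 to 0.31, for H2-DMb2 from 0.23 to 0.60 and for Ciita from 0.23 to 0.67. Ciita followed Cd74 more closely by rank (rho = 0.82, adjusted permutation p = 0.0141) than on the log2 scale (r = 0.59, adjusted permutation p = 0.131). That r was 0.89 without TMA-ARB replicates 7 and 9, the 2 libraries farthest from the median of Cd74. The members share each library's depth and scaling.

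**Figure D4:**
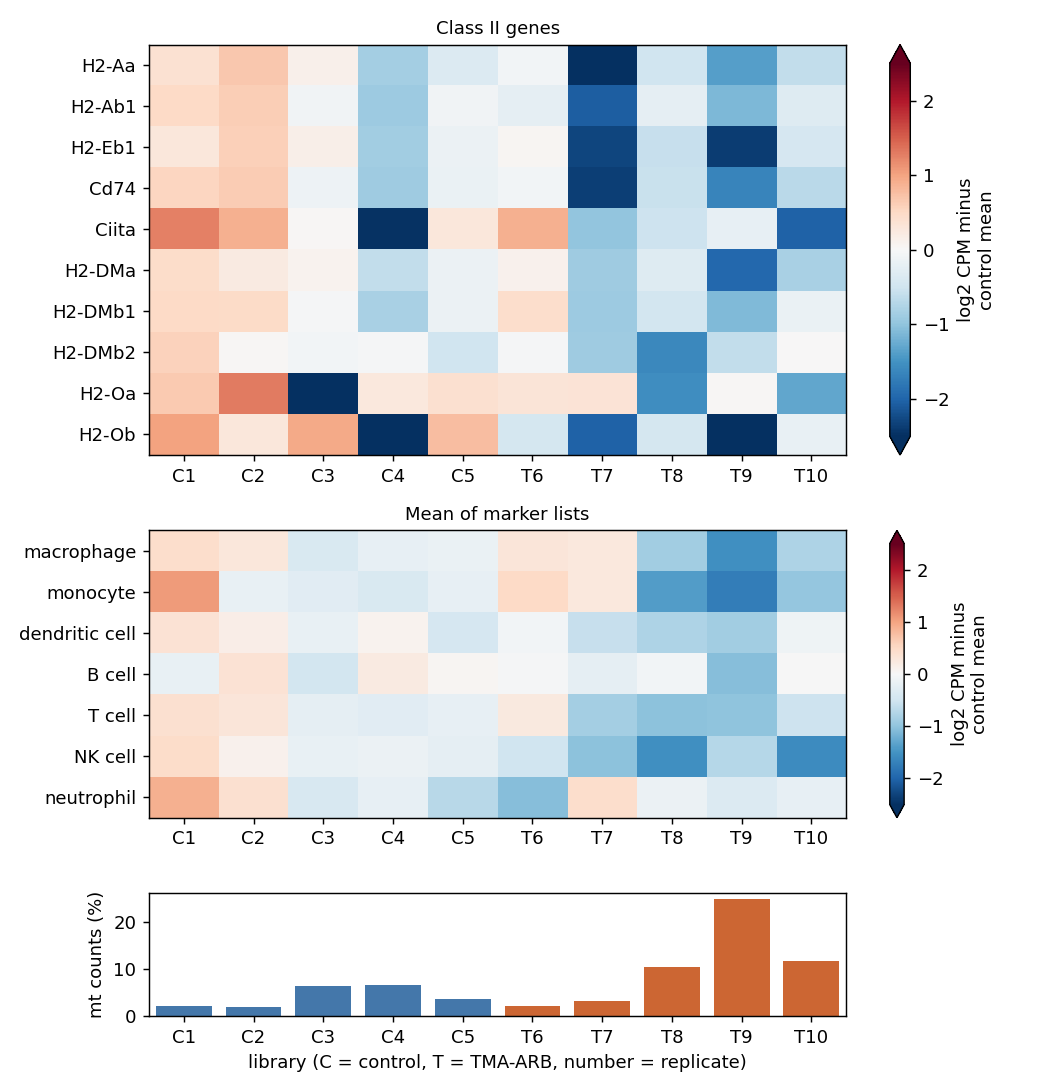
Heat maps of log2 CPM minus the control mean for the class II genes (top) and of the mean over marker lists (middle), with the mitochondrial share of each library below. Columns are libraries. The columns for control replicates 1 and 2 are mostly positive in the upper map, and those for TMA-ARB replicates 7 and 9 mostly negative, while the macrophage row is not negative in TMA-ARB replicate 7.

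Markers of the cells that carry class II molecules were set beside the members. All 13 macrophage markers were tested, and 11 were negative, with 0 called, 1 at an unadjusted edgeR p under 0.05 and a median of -0.48. Their summed level ran from 1833 to 4525 CPM in controls and from 855 to 5313 CPM under TMA-ARB. The highest sum was in TMA-ARB replicate 7, the library lowest in Cd74, H2-Aa and H2-Ab1, and 3725 CPM of it came from Lyz2, a lysozyme gene. Without Lyz2 that library summed to 1589 CPM, below control replicate 1 (1768 CPM) and TMA-ARB replicate 6 (1748 CPM). Its mean log2 CPM over the 13 markers, 6.91, was likewise below those of control replicates 1 and 2 and TMA-ARB replicate 6 (7.09, 6.93 and 6.95). TMA-ARB replicate 7 also held 361 CPM of C1qa, a complement gene of macrophages, and 53.0 CPM of Emr1, the gene of the F4/80 antigen. Its Csf1r, at 120 CPM, lay within the control range of 99.8 to 183 CPM. The log2 ratio of Cd74 to the mean of macrophage markers was 1.84 to 2.88 in controls, 2.14 to 2.83 in TMA-ARB replicates 6, 8, 9 and 10, and -0.10 in TMA-ARB replicate 7. The mean difference was -0.55 (exact permutation p = 0.452), and -0.03 without TMA-ARB replicate 7. TMA-ARB replicate 9, in contrast, was lowest in the summed macrophage markers.

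**Figure D5:**
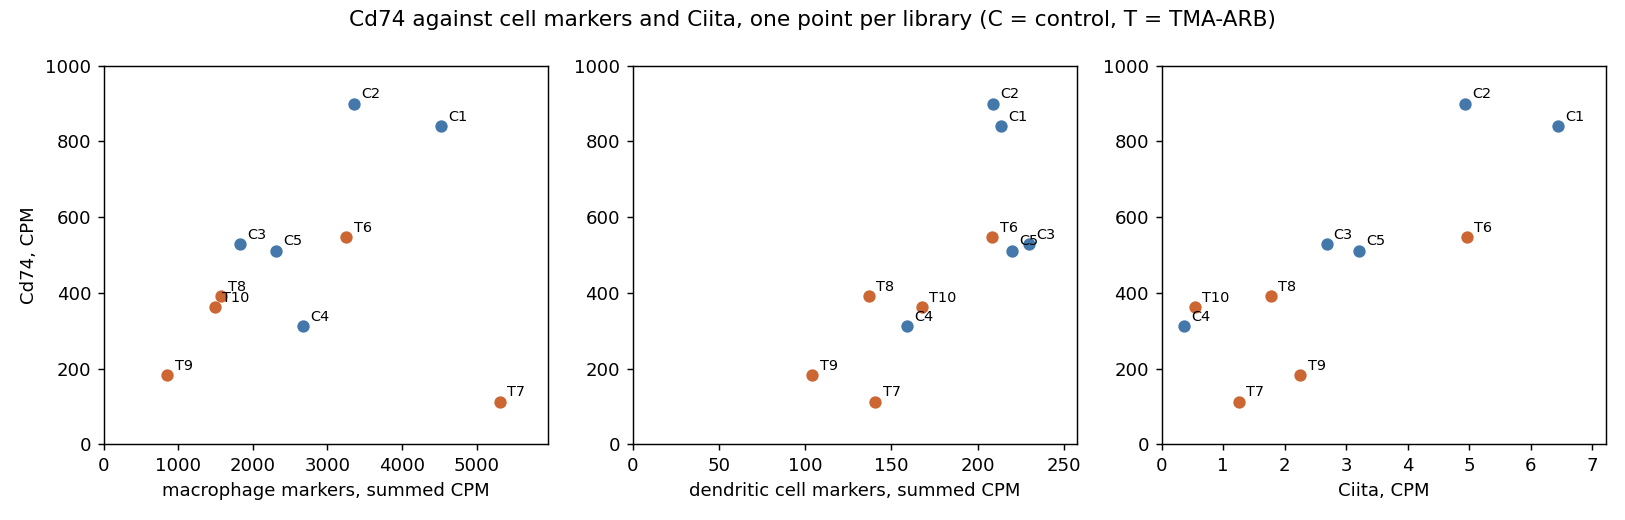
Cd74 CPM against the summed CPM of macrophage markers, the summed CPM of dendritic cell markers and Ciita CPM, with a point per library. TMA-ARB replicate 7 stands alone at the lower right of the macrophage panel, at 5313 summed marker CPM, of which 3725 are Lyz2, and 112 CPM of Cd74. Its other macrophage markers sum to 1589 CPM, below control replicate 1 and TMA-ARB replicate 6.

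Of 11 tested dendritic cell markers, 10 were negative, 0 called, with a median of -0.47. They summed to 159 to 230 CPM in controls and 104 to 209 CPM under TMA-ARB, mostly Fscn1, an actin-bundling gene that other cells express too. Itgax, the CD11c gene, measured 19.97 ± 5.52 and 12.1 ± 5.73 CPM (log2 fold change -0.72 ± 0.32, edgeR unadjusted p = 0.0401). Xcr1, a receptor of cross-presenting dendritic cells, went the other way, at 1.06 ± 0.57. The log2 ratio of Cd74 to dendritic cell markers differed by -0.59 (exact permutation p = 0.222), and by -0.29 without TMA-ARB replicate 7 (exact permutation p = 0.405). B cell markers were scarce: 7 of 11 were too low to test, and the list summed to 8.56 to 14.0 CPM in controls and 8.62 to 15.7 CPM under TMA-ARB. The log2 ratio of H2-Ob to the 4 tested B cell markers differed by -0.94 (exact permutation p = 0.325), and by -1.75 without control replicate 4 (exact permutation p = 0.00794, the smallest possible there). Without control replicate 3 it was -0.59 (exact permutation p = 0.595). For Cd74 that ratio differed by -0.79 (exact permutation p = 0.143), and by -1.07 without control replicate 4 (p = 0.0238, exact), but by -0.45 without TMA-ARB replicate 7 (p = 0.286, exact). The adjusted p over the 7 ratios was 0.370 or above for each with all libraries. Lymph node stroma markers Ccl19, Madcam1 and Chst4 had 0 counts in every library, and the list, mostly Ccl21a, summed to 37.99 CPM in control replicate 3, 29.9 in TMA-ARB replicate 10 and at most 3.77 elsewhere. All 8 tested T cell markers and all 4 NK cell markers were negative, with medians of -0.65 and -0.83 and 0 called. At an unadjusted edgeR p under 0.05 there were 0 T cell and 2 NK cell markers, beside 1.66% of all genes called lower by that rule. Nkg7, a granule gene of NK and cytotoxic T cells, was at -1.03 ± 0.31 (edgeR unadjusted p = 0.00546). Medians were -0.42 for 4 monocyte markers, -0.29 for 4 neutrophil markers, -0.02 for 4 fibroblast markers and -0.12 for 3 endothelial markers, with 0 called, and Ptprc, the pan-leukocyte CD45 gene, was at -0.18 ± 0.21. Of 6 epithelial markers 5 were positive, with a median of 0.97 and 0 called, and Krt8, a luminal keratin, was at 1.23 ± 0.42 (edgeR unadjusted p = 0.0122). The part of these cell markers in the class II values was not tested.

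Genes that act before and after class II loading were given by lists. Of 10 endosomal proteases and processing genes, 9 were negative, 0 called and 1 at an unadjusted edgeR p under 0.05, with a median of -0.28. Ctss, the protease that trims the invariant chain, averaged 594 ± 50.8 CPM in the controls, against 464 ± 68.5 with TMA-ARB (log2 fold change -0.36 ± 0.17, unadjusted p = 0.0533). Ctsz was at -0.37 ± 0.16 (unadjusted p = 0.0376) and Ifi30, a thiol reductase of endosomes, at -0.27 ± 0.23. Ctsl alone was positive, at 0.09 ± 0.27. All 6 tested genes of a list of costimulatory and inhibitory molecules were negative (median -0.40, 0 called). Cd86 was at -0.69 ± 0.38 and Cd274, the gene of the inhibitory ligand PD-L1, at -0.69 ± 0.40. March1, a ubiquitin ligase that removes class II molecules from the surface, was at -0.15 ± 0.34. Among the 3 tested turnover genes 2 were negative and 0 were called.

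Cd74 served as the reference for likeness over the 10 libraries. Among 13476 other genes with a mean of at least 1 CPM, its nearest by Pearson's r on log2 CPM were H2-Aa (0.98) and H2-Ab1 (0.98), with H2-Eb1 in place 5 (0.96), H2-DMb1 in place 27 (0.90) and H2-DMa in place 152 (0.83). Ciita came in place 1302 and H2-DMb2 in place 1549. The 8 nearest genes outside the members were Tgm2 (0.98), Fnbp1 (0.96), Ets2 (0.95), Wdr81 (0.95), Llgl1 (0.95), Prkd2 (0.95), Arf3 (0.95) and Sec16a (0.93). They were picked for these r values, so no test is given. Tgm2, a transglutaminase gene, had a log2 fold change of -0.49 ± 0.21 and the other 7 lay between Ets2 at -0.25 and Prkd2 at -0.47, none of them past an adjusted p of 0.05 in edgeR (0 of 8).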

How the data were processed

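Poly-A RNA of 10 tumours was sequenced from strand-marking libraries, per the labels' protocols. Estimated counts of 37882 genes were deposited by the authors, made with Salmon on mm10 per the submitters' processing notes. Salmon's version, the annotation and the strand setting are not given in the sources used here. Every deposited value was already a whole number (0 exceptions). Groups came from sample titles and columns from sample names (0 unmatched). Totals ran from 12742953 to 16884621 counts; intervals and floors cover counting error only.

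EdgeR 4.0.16 in R 4.3.3 fitted TMA-ARB over control (TMM scaling, default filter, robust quasi-likelihood F test, Benjamini-Hochberg at 0.05), leaving 14063 genes. SE is the absolute log2 fold change over the square root of F. CPM uses TMM-scaled library sizes, and log2 values add a prior count of 2. Ratios used two-sided exact permutation of group labels (252 arrangements) and correlations 100000 permutations. Exon lengths come from GENCODE mouse release 21 (GRCm38, the assembly of mm10). The edgeR step was tested on simulated data. All 10 members are named. Likeness names the 8 nearest genes to Cd74. Lists name up to 4 genes of smallest p, and further list genes (Rfx5, Ifng, Irf1, Cxcl9, Ctsl, Ifi30, Lyz2, C1qa, Emr1, Csf1r and the lymph node genes) were named after their values were seen. Some list genes are not reported here. Emr1 and Chi3l3 were matched by identifier. Members and lists were chosen with earlier results of these data known. Alternatives were DESeq2 1.42.0, limma 3.58.1, RLE scaling, other filters, mitochondrial settings and leaving out each library; summing H2-DMb1 and H2-DMb2 was added after seeing the data.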

Additional observations from a re-analysis of the deposited data

Results flagged for a closer look

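Single libraries stood apart in 3 of 36 groups of 5 values examined by Dixon's gap test, a rule that chance meets in about 1 in 20 groups. In TMA-ARB replicate 7 the log2 ratio of Cd74 to macrophage markers was -0.10, where the other TMA-ARB libraries lay between 2.14 and 2.83. In control replicate 4 the log2 ratio of Cd74 to dendritic cell markers was 6.02, with the other controls at 7.07 to 7.48. The log2 ratio of Ciita to Cd74 was -9.30 in that same control, which held 5 counts of Ciita, with the other controls at -7.55 to -6.997.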

How the results depend on the processing

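No paired analysis was possible because replicate numbers run from 1 to 10 with none shared between the groups. All 197 refits of single members, 2 of them with H2-DMb1 and H2-DMb2 summed, kept a negative sign and none was called. With 1 library left out, the members' median was between -1.07 (TMA-ARB replicate 6 out) and -0.60 (control replicate 2 out). It was -0.50 in libraries above a 5% mitochondrial share and -0.48 with that share as a covariate, the value nearest 0 of all settings run. Over all genes DESeq2 called 2 and the libraries above a 5% mitochondrial share alone called 4, none of them a member, against 0 in the edgeR fit of all libraries. With 1 library left out that count was 0 to 0. Unadjusted p under 0.05 was reached by 4 members in DESeq2 (3.46% of all genes, either direction), 3 in limma-voom (9.88%), 6 without TMA-ARB replicate 6 (8.5%) and 0 with the mitochondrial share as a covariate (5.28%). With a prior count of 0.5 the correlations of H2-Oa with H2-Ab1 and with H2-DMa changed sign, to -0.027 and -0.012. The mitochondrial share differed by 6.31 points (exact permutation p = 0.143), by 2.69 without TMA-ARB replicate 9 and by 8.38 without TMA-ARB replicate 6 (exact permutation p = 0.0397). The mean of at least 5 CPM left 6 members. Depth limits H2-Oa, H2-Ob and Ciita most, at 0 to 98 counts per library.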
